A study of Homo sapiens with 9 samples.

Results

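Messenger RNA of 10 genes of the NF-kappaB pathway was followed in MDA-MB-231, an established cell line from a human breast carcinoma that lacks hormone receptors. The genes were the subunit genes NFKB1, NFKB2, RELA and RELB, the inhibitor gene NFKBIA, NFKBIZ of the same family, TNFAIP3 with its partners TNIP1 and TNIP3, and BIRC3. They were taken by name, without a measured threshold, and each name matched 1 gene among the 58219 genes of the files and was among the 15233 genes with enough reads to test. The 9 libraries fell into 3 groups of 3. shAPT1 cells carried a lentiviral short hairpin RNA against APT1, which is encoded by LYPLA1 and removes palmitate from proteins at membranes, and the knockdown was stable after puromycin selection. APT1wt cells stably overexpressed wild-type APT1 from a lentivirus. Control cells received a lentivirus for a scramble RNA. All groups were grown in DMEM with serum, and no cytokine or other NF-kappaB stimulus is named in the labels. A lentivirus carrying an empty overexpression vector is not among the groups, the number of hairpins and clones is not given, and separate cultures within a group are not stated. The p-values therefore rest on the spread between samples that may be technical repeats.

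NF-kappaB proteins are dimers that bind kappaB sites in DNA. In resting cells, inhibitors of the IkappaB family hold the dimers in the cytoplasm. Signals from cytokine and Toll-like receptors activate IkappaB kinase, the inhibitor is degraded and the dimers enter the nucleus. Many of the genes then switched on encode the pathway's own brakes and several of its subunits, which makes a negative feedback loop. Breast carcinoma lines of the triple-negative type, MDA-MB-231 among them, are known for NF-kappaB activity without an added stimulus.

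Promoters of the genes were examined first, because kappaB sites are the DNA sequence through which such feedback is known to run. RefSeq windows on GRCh38.p14, each reaching from 250 bases before to 50 bases after an annotated start, were at hand for 9 of the 10 genes, with RELB named only, and numbered 17. Both strands were searched for the 10-base kappaB consensus. It occurred in 11 of the 17 windows (64.7%), against 5.91% of all 35116 windows of this length. By gene, it occurred in 8 of 9 (88.9%), against 8.89% of the 10324 tested genes with a window, and RELA was the exception. Genes with several windows have more chances to hold a match, and a match is a description of letters, not a bound site. The genes were chosen as known parts of this feedback loop, so the excess over all genes describes that choice and tests nothing. The windows below are 1 each, with a match, of the genes for regulators of the pathway (NFKBIA, NFKBIZ, TNFAIP3, TNIP1, TNIP3 and BIRC3), shown so that the matches of the feedback genes can be compared, with RELA as the gene without a match. All are read 5′ to 3′ on the gene's strand, in lower case, with the kappaB matches in capitals. A match on the opposite strand is shown as it reads here.
NFKBIA (chr14:35404700-35404999, minus strand): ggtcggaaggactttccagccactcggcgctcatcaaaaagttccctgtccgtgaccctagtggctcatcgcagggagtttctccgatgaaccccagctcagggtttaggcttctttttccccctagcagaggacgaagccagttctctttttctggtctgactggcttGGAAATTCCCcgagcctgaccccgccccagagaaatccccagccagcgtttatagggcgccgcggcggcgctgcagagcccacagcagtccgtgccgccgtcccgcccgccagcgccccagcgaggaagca
NFKBIZ (chr3:101827740-101828039, plus strand): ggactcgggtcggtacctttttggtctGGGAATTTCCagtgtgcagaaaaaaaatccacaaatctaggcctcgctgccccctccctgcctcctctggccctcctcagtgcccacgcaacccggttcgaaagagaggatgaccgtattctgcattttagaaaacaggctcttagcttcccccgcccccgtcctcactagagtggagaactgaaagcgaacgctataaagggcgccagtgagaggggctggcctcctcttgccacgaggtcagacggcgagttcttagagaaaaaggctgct
TNFAIP3 (chr6:137867009-137867308, plus strand): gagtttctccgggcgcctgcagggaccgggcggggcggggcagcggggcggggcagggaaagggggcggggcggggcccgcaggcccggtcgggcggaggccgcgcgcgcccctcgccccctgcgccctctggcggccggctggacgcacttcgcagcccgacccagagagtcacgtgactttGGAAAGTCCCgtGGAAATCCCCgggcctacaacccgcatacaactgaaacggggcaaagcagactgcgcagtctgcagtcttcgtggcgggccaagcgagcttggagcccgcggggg
TNIP1 (chr5:151080985-151081284, minus strand): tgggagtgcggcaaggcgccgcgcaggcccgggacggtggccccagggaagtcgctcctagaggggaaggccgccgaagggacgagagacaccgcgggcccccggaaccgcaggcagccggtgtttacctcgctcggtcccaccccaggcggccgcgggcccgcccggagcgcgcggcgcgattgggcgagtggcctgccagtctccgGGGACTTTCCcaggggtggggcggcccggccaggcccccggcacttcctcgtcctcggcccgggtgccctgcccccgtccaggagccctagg
TNIP3 (chr4:121164272-121164571, minus strand): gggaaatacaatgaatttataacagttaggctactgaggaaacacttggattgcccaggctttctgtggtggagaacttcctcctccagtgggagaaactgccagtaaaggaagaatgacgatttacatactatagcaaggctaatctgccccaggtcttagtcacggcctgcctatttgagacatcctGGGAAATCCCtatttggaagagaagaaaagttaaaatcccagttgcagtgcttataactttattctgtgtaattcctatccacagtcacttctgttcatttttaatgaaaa
BIRC3 (chr11:102317234-102317533, plus strand): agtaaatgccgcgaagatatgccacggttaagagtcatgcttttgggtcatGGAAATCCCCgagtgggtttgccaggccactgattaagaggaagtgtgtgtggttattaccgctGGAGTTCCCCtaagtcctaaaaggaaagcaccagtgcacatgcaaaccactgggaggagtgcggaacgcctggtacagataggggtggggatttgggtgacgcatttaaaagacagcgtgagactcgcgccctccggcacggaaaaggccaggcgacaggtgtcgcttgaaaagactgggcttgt
RELA (chr11:65662867-65663166, minus strand): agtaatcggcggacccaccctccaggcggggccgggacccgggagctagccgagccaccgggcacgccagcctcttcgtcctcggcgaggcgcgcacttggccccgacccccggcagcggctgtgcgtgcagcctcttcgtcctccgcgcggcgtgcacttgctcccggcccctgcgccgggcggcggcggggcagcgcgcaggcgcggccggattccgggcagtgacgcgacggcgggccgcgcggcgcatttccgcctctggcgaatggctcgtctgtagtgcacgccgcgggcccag
The NFKBIA match began 81 bases before the start site. TNFAIP3 had a pair of matches, 67 and 55 bases before an annotated start, and BIRC3 a pair at 199 and 135 bases. TNIP1 had its match at 42 bases. TNIP3 had one at 61 bases in the window shown and another at 62 bases in a second window, and NFKBIZ one at 223 bases in the window shown and another at 239 bases in a second window. NFKBIZ transcripts starting in the window shown had 2.57, 5.82 and 6.0 TPM in shAPT1, APT1wt and control. Those of its second window had more, 7.34, 16.3 and 16.6 TPM. In the same group order, transcripts starting in the TNFAIP3 window had 0.966, 2.75 and 1.71 TPM, of 10.9, 13.94 and 11.55 TPM for the gene. The TNIP1 window shown had 50.2, 57.6 and 67.5 TPM, of 111.7, 191.9 and 207.9 TPM. In shAPT1 the NFKBIA window held 58.5 of 61.63 TPM and the BIRC3 window 66.1 of 71.24 TPM. Among the genes not printed in full, NFKB1 had a match 49 bases before a start, and NFKB2 had 5 matches in 2 windows, of which a pair overlap.
NFKB1 at 49 bases: GGGAATTTCC
NFKBIZ at 223 bases: GGGAATTTCC
NFKB2 at 21 bases: GGGACTTTCC
TNIP1 at 42 bases: GGGACTTTCC
The 10 letters of the NFKB1 and NFKBIZ matches listed were identical, as were those of the NFKB2 and TNIP1 matches listed. Other identical matches were those of TNFAIP3 at 55 bases and BIRC3 at 199 bases, and of NFKBIZ at 239 bases and TNIP3 at 62 bases. Read on the opposite strand, the NFKBIA match had the letters of the NFKB1 and NFKBIZ matches listed. In the same way, the TNFAIP3 match at 67 bases had those of NFKB2 and TNIP1.

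Depth was 12381931 to 18667383 estimated reads per library. LYPLA1, the targeted gene, stood at 38.2, 30.5 and 36.7 TPM (transcript abundance corrected for length and depth) in shAPT1, at 168.9, 170.9 and 169.9 TPM in APT1wt, and at 87.1, 92.7 and 80.5 TPM in control, so the groups separated in the labelled directions. On reads it was at 0.41 of control in shAPT1 (edgeR, adjusted p = 2.0e-08) and 1.52-fold in APT1wt (edgeR, adjusted p = 1.1e-05). The rise in APT1wt was thus smaller on reads than on the TPM scale. Against APT1wt, shAPT1 was at 0.27 (edgeR, adjusted p = 5.0e-10). The lack of hormone receptors was borne out by ESR1 and PGR, which encode the estrogen and progesterone receptors, at no more than 0.22 and 0.057 TPM. VIM, for vimentin, stood at 1801 to 2373 TPM. ERBB2 and CDH1 were also listed as low for this line. CDH1 stood at 0.383 to 2.76 TPM. ERBB2 stood well above it, at 27.5 to 37.3 TPM, and no line with high ERBB2 was at hand to judge whether this is low. Of 10 markers of leukocytes, cells rich in NF-kappaB transcripts, TYROBP was listed at 0 in all 9 libraries and PTPRC and CD3E reached no more than 0.265 TPM. The summed leukocyte list lay at 118 to 133 TPM in shAPT1, 134 to 176 TPM in APT1wt and 121 to 145 TPM in control, nearly all of it CD68 and LCP1, which carcinoma cells may also express. These moved in opposite directions. LCP1 was higher than control in both lines, 3.83-fold in shAPT1 (edgeR, adjusted p = 7.2e-09) and 5.91-fold in APT1wt (edgeR, adjusted p = 9.9e-10). CD68 was lower in both, at 0.651 of control in shAPT1 (edgeR, adjusted p = 0.0015) and 0.704 in APT1wt (edgeR, adjusted p = 0.0059). Fewer cells expressing a gene and less RNA per cell cannot be told apart in these bulk libraries.

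On the TPM scale the order of levels in control cells was TNIP1, RELA, NFKBIA, BIRC3, NFKB2, NFKB1, NFKBIZ, RELB, TNIP3 and TNFAIP3. TNIP1 averaged 207.9 ± 11.9 TPM there and TNFAIP3 11.6 ± 2.95 TPM (SD, n = 3). Neighbours in that order overlapped between libraries for BIRC3 with NFKB2, at 74.95 ± 10.9 and 73.8 ± 4.03 TPM, and for TNIP3 with TNFAIP3, at 12.2 ± 0.574 and 11.6 ± 2.95 TPM. The other neighbours did not overlap, the narrowest gap being that of NFKBIZ and RELB, at 29.4 ± 2.04 and 25.1 ± 1.03 TPM. In shAPT1 the order changed at the top, RELA at 121.5 ± 12.2 TPM standing above TNIP1 at 111.7 ± 19.2 TPM, with overlapping libraries, and TNIP3 was the lowest at 1.98 ± 2.05 TPM.

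**Figure D1:**
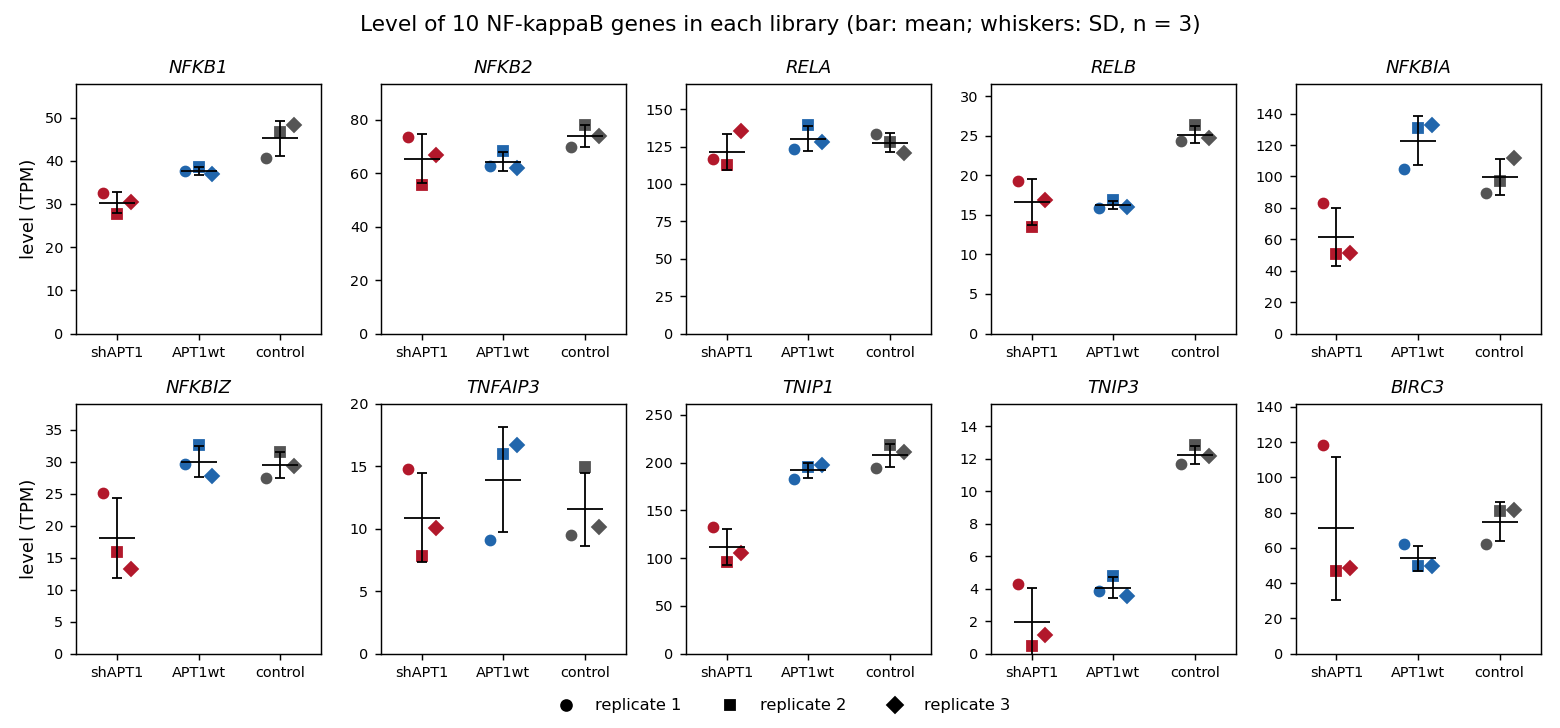
Level of each of the 10 genes in TPM on a linear axis from 0, 1 point per library, with a bar for the mean and whiskers for the SD of 3, with shAPT1, APT1wt and control side by side. NFKB1, RELB, NFKBIA, NFKBIZ, TNIP1 and TNIP3 lie lower in all 3 shAPT1 libraries than in any control library, and TNFAIP3, BIRC3, RELA and NFKB2 overlap.

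The first question was whether the pathway's own transcripts differed when APT1 was knocked down. In shAPT1, 8 of the 10 genes were lower than in control and none was higher past an adjusted p of 0.05, where 11.6% of all 15233 tested genes were lower and 12.8% higher (24.4% in all). The median log2 fold change of the 10 was -0.67, beside 0.0 over all tested genes. The falls were largest for TNIP3, NFKBIZ, TNIP1 and NFKBIA, which encode regulators of the subunits or of signalling upstream, and smaller for the subunit genes. TNFAIP3 and BIRC3 did not pass. By TPM, libraries did not overlap for 6 of the 10, all lower in shAPT1, where 10.4% of tested genes were lower and 20.7% higher without overlap.

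Among the subunits, NFKB1 (ENSG00000109320.11, chromosome 4, 102501329 to 102617302, plus strand, GRCh38) encodes p105, the precursor of the p50 subunit and itself an inhibitor. It stood at 32.6, 27.8 and 30.6 TPM in shAPT1, at 37.5, 38.5 and 36.9 TPM in APT1wt and at 40.7, 46.6 and 48.2 TPM in control. The 3 groups did not overlap, with shAPT1 lowest and control highest. The log2 fold change was -0.67 ± 0.07 (SE) in shAPT1 against control (edgeR quasi-likelihood test, adjusted p = 7.9e-06) and -0.27 ± 0.07 in APT1wt against control (edgeR, adjusted p = 0.0085).

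RELB (ENSG00000104856.13, chromosome 19, 45001430 to 45038198, plus strand) encodes the subunit that pairs with p52 in the non-canonical branch. Its level was 19.3, 13.5 and 16.9 TPM in shAPT1, 15.9, 16.8 and 16.0 TPM in APT1wt and 24.4, 26.3 and 24.8 TPM in control. Both modified lines lay below every control library and overlapped each other. With a log2 fold change of -0.67 ± 0.10 in shAPT1 (edgeR, adjusted p = 1.8e-04) and -0.54 ± 0.10 in APT1wt (edgeR, adjusted p = 0.001), RELB fell in both.

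NFKB2 (ENSG00000077150.18, chromosome 10, 102394110 to 102402529, plus strand) encodes p100, the precursor of p52. It stood at 73.7, 55.6 and 66.8 TPM in shAPT1, 62.5, 68.4 and 61.9 TPM in APT1wt and 69.9, 77.9 and 73.8 TPM in control. The first shAPT1 library lay in the control range, the other two under it, and all APT1wt libraries lay under it. On reads the difference passed in shAPT1, at -0.28 ± 0.07 (edgeR, adjusted p = 0.0089), and not in APT1wt, at -0.18 ± 0.07 (edgeR, adjusted p = 0.082). Without the second shAPT1 library it was -0.21 (edgeR, adjusted p = 0.055).

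RELA (ENSG00000173039.18, chromosome 11, 65653596 to 65663094, minus strand) encodes p65, the main transactivating subunit. Its level was 116.4, 112.7 and 135.4 TPM in shAPT1, 123.1, 139.2 and 128.2 TPM in APT1wt and 133.4, 128.3 and 120.8 TPM in control, and the groups overlapped throughout. The log2 fold change in shAPT1, -0.19 ± 0.07, passed narrowly (edgeR, adjusted p = 0.042) and did not pass in 15 of the 21 alternative analyses, which include leaving out any single library other than the third of shAPT1. In APT1wt it was 0.00 ± 0.06 (edgeR, adjusted p = 0.98). RELA overlaps a long non-coding RNA gene on the opposite strand in GENCODE 29, and the strand setting of the counting is not given in the sources used here, so reads of the pair may be mixed.

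Because the subunits fell unequally, their ratios of TPM differed between groups. NFKB2 over NFKB1 was 2.26, 2.0 and 2.18 in shAPT1, 1.67, 1.77 and 1.68 in APT1wt and 1.72, 1.67 and 1.53 in control, with every shAPT1 library above the rest. RELB over RELA was 0.166, 0.12 and 0.125 in shAPT1, 0.129, 0.121 and 0.125 in APT1wt and 0.183, 0.205 and 0.205 in control. These are ratios of mRNA, and with 3 against 3 libraries an exact permutation test cannot go below 0.1.

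Of the IkappaB family, NFKBIA (ENSG00000100906.10, chromosome 14, 35401511 to 35404749, minus strand) encodes IkappaB-alpha, the inhibitor that is resynthesised first after activation. It stood at 82.9, 50.4 and 51.6 TPM in shAPT1, 105.0, 130.9 and 132.6 TPM in APT1wt and 89.6, 97.1 and 112.0 TPM in control. All shAPT1 libraries lay below all others, the first of them close to the control range, while APT1wt overlapped control from above. The log2 fold change was -0.78 ± 0.14 in shAPT1 against control (edgeR, adjusted p = 0.001) and 0.32 ± 0.13 in APT1wt against control (edgeR, adjusted p = 0.1). Set over RELA, the subunit it retains in the cytoplasm, NFKBIA had a TPM ratio of 0.713, 0.447 and 0.381 in shAPT1, 0.853, 0.94 and 1.03 in APT1wt and 0.671, 0.757 and 0.927 in control. The first shAPT1 library lay inside the control range of that ratio and the other two below it.

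NFKBIZ (ENSG00000144802.11, chromosome 3, 101827991 to 101861022, plus strand) encodes IkappaB-zeta, a nuclear family member that acts as a coregulator of a subset of inflammatory genes. Its level was 25.1, 15.8 and 13.2 TPM in shAPT1, 29.6, 32.5 and 27.7 TPM in APT1wt and 27.4, 31.5 and 29.4 TPM in control. The shAPT1 libraries were all lower, and APT1wt and control coincided. Relative to control the log2 fold change was -1.05 ± 0.16 in shAPT1 (edgeR, adjusted p = 2.6e-04) and 0.04 ± 0.15 in APT1wt (edgeR, adjusted p = 0.89).

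TNFAIP3 (ENSG00000118503.14, chromosome 6, 137867188 to 137883312, plus strand) encodes A20, the ubiquitin-editing enzyme that shuts off signalling upstream of IkappaB kinase. Its level was 14.8, 7.84 and 10.0 TPM in shAPT1, 9.14, 16.0 and 16.7 TPM in APT1wt and 9.53, 14.9 and 10.2 TPM in control, on 217 to 465 estimated reads per library. The groups overlapped fully. The log2 fold change was -0.23 ± 0.17 in shAPT1 (edgeR, adjusted p = 0.38) and 0.27 ± 0.17 in APT1wt (edgeR, adjusted p = 0.28). An antisense gene overlaps it in GENCODE 29, with the same limit on strand as for RELA.

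TNIP1 (ENSG00000145901.14, chromosome 5, 151029945 to 151093577, minus strand, the position being that of the later version ENSG00000145901.15 in GENCODE 29) encodes ABIN-1, a ubiquitin-binding partner through which A20 is recruited to its substrates. It stood at 133.1, 96.2 and 105.8 TPM in shAPT1, 182.5, 195.8 and 197.5 TPM in APT1wt and 194.8, 218.0 and 210.8 TPM in control. The shAPT1 libraries lay far under the others, and APT1wt overlapped the lowest control library. On the log2 scale the difference from control was -0.96 ± 0.09 in shAPT1 (edgeR, adjusted p = 3.0e-06) and -0.14 ± 0.09 in APT1wt (edgeR, adjusted p = 0.26).

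TNIP3 (ENSG00000050730.15, chromosome 4, 121131408 to 121227466, minus strand) encodes ABIN-3, the third partner of A20 and the least expressed of the group in shAPT1. It had 4.32, 0.474 and 1.14 TPM in shAPT1, on 50, 13 and 17 estimated reads, 3.89, 4.79 and 3.56 TPM in APT1wt, on 72, 44 and 66 reads, and 11.7, 12.8 and 12.2 TPM in control, on 149, 148 and 171 reads. Both modified lines lay under control without overlap, and the first shAPT1 library lay inside the APT1wt range. Its log2 fold change was -2.73 ± 0.35 in shAPT1 (edgeR, adjusted p = 6.4e-05) and -1.57 ± 0.31 in APT1wt (edgeR, adjusted p = 0.002). Low counts in shAPT1 limit its precision there.

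BIRC3 (ENSG00000023445.13, chromosome 11, 102317450 to 102339403, plus strand) encodes cIAP2, a ubiquitin ligase that restrains the non-canonical branch and blocks cell death at the TNF receptor. Its level was 118.1, 47.1 and 48.5 TPM in shAPT1, 62.4, 50.03 and 49.9 TPM in APT1wt and 62.4, 80.9 and 81.5 TPM in control. The first shAPT1 library was the highest of all 9 and the other two the lowest of all 9. Against control its log2 fold change was -0.11 ± 0.25 in shAPT1 (edgeR, adjusted p = 0.8) and -0.44 ± 0.25 in APT1wt (edgeR, adjusted p = 0.24). BIRC2, the neighbouring gene for cIAP1, begins 7808 bases downstream and is similar in sequence, but only 37 of the 7591 distinct 31-base words of the BIRC3 transcripts (0.487%) also occur in those of BIRC2.

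**Figure D2:**
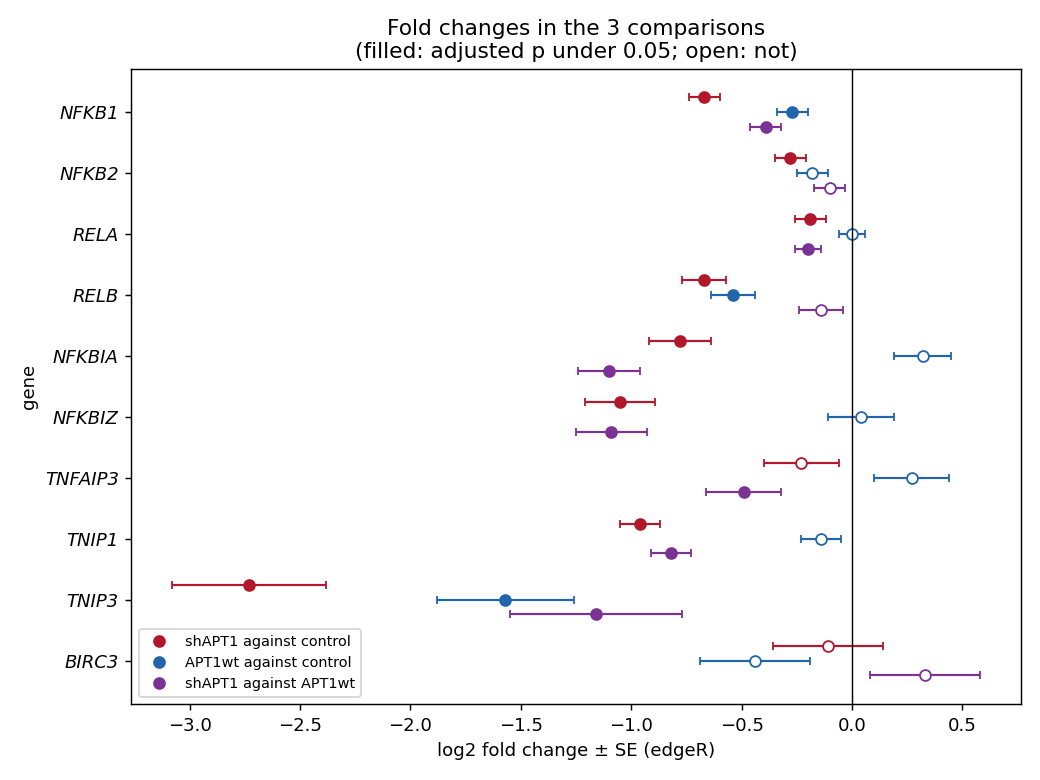
Log2 fold change of each gene with its SE in the 3 comparisons, with filled points for an adjusted p under 0.05. In shAPT1 against control 8 filled points lie below 0 and none above, in APT1wt against control 3, and in shAPT1 against APT1wt 7.

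Libraries of the shAPT1 group did not carry these genes alike. The first shAPT1 library was the highest of its group for 9 of the 10 genes, all but RELA, where 40.7% of all tested genes were highest in that library. For BIRC3, TNIP3, NFKBIA and NFKBIZ its TPM was over 1.5 times that of both others, where 3.26% of tested genes were. The second shAPT1 library was the lowest for 9 of the 10, all but NFKBIZ, where 42.2% of tested genes were lowest there. The first control library was the lowest control for 9 of the 10, again all but RELA, where 49.2% of tested genes were. Both descriptions were chosen after the values were seen, and the source of the difference between these libraries was not tested. The first libraries also differed from their mates over genes at large. The mean chi-square per gene of the first shAPT1 library against the others was 12.3 and 18.3, beside 7.39 between those. For control these values were 8.49 and 7.13, beside 2.1, and for APT1wt 5.21 and 6.46, beside 2.48.

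Without the first shAPT1 library, 9 of the 10 genes were lower in shAPT1 than in control. Over all tested genes 1861 were lower and 2003 higher in that fit, beside 1768 and 1951 in the main fit. TNFAIP3 then passed at -0.49 (edgeR, adjusted p = 0.0075), and BIRC3 at -0.66 (edgeR, adjusted p = 2.7e-04). RELA no longer passed, at -0.16 (edgeR, adjusted p = 0.071), and the fall of TNIP3 reached -3.71 (edgeR, adjusted p = 8.7e-09). Without the second or the third shAPT1 library, the sign of the BIRC3 difference turned, to 0.10 and 0.12. NFKB1, RELB, NFKBIA, NFKBIZ, TNIP1 and TNIP3 were lower past the threshold in all 21 alternative analyses of this comparison, whichever library was left out.

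**Figure D3:**
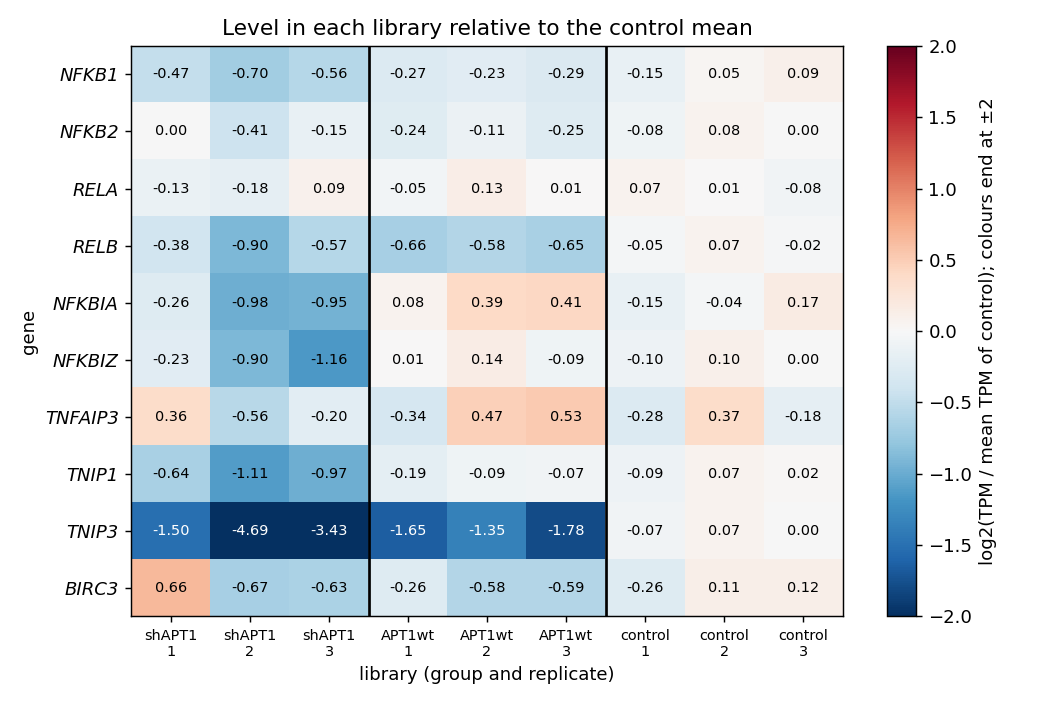
Level of each gene in each of the 9 libraries relative to the mean of the 3 control libraries, on a log2 scale of TPM, as a colour map with genes in rows and libraries in columns, shAPT1 left, then APT1wt, control right. The first shAPT1 column is paler or redder than the other two for most genes, and for BIRC3 its colour is opposite to theirs.

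With APT1 overexpressed, 3 of the 10 genes were lower than in control, namely TNIP3, RELB and NFKB1, and none was higher, where 11.6% of tested genes were lower and 11.8% higher (23.4% in all). The median of the 10 was -0.16. By TPM, 4 genes did not overlap, these 3 and NFKB2, all lower in APT1wt, where 18.7% of tested genes were lower and 16.3% higher without overlap. The count of calls differed between alternative fits. It was 6 when the first shAPT1 library was left out of the fit, 5 of them lower and NFKBIA higher at 0.32 (edgeR, adjusted p = 0.01), 7 when only APT1wt and control were fitted, and 2 without the third control library, where NFKB1 no longer passed at -0.24 (edgeR, adjusted p = 0.054). Calls over all tested genes moved too, from 1796 higher and 1772 lower in the main fit. They were 2434 and 2391 without the first shAPT1 library, 2329 and 2324 with only the 2 groups, and 1239 and 1227 without the third control library. TNIP3, RELB and NFKB1 were also among the genes lower in shAPT1, but both comparisons share the control libraries, so these are not independent results.

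Directly against APT1wt, 7 of the 10 genes were lower in shAPT1 and none was higher, where 12.4% of tested genes were lower and 12.7% higher (25.1% in all). The median of the 10 was -0.44. Scaling by library totals alone gave 4 lower genes, and moved the split over all tested genes to 2628 higher and 1327 lower, beside 1941 higher and 1888 lower with the main scaling. NFKBIA was lower at -1.10 ± 0.14 (edgeR, adjusted p = 6.2e-05), NFKBIZ at -1.09 ± 0.16 (edgeR, adjusted p = 1.9e-04), TNIP1 at -0.82 ± 0.09 (edgeR, adjusted p = 1.5e-05) and NFKB1 at -0.39 ± 0.07 (edgeR, adjusted p = 7.6e-04). By TPM these 4 did not overlap between the lines, where 9.98% of tested genes were lower and 22.9% higher without overlap. NFKBIA, NFKBIZ and TNIP1 passed in all 21 alternatives and NFKB1 in 20 of them. TNIP3 at -1.16 ± 0.39 (edgeR, adjusted p = 0.041), TNFAIP3 at -0.49 ± 0.17 (edgeR, adjusted p = 0.044) and RELA at -0.20 ± 0.06 (edgeR, adjusted p = 0.039) passed narrowly and were lost in 15, 13 and 14 of the 21. TNIP3 was at -2.14 without the first shAPT1 library, and at -0.76 and -0.84, short of the threshold, without the second or the third. TNFAIP3 was at -0.76, -0.32 and -0.41 without the first, the second and the third shAPT1 library, and passed in the first case alone among these 3. The count of lower genes was 4 without the second shAPT1 library, the second or the third APT1wt library, or the second or the third control library. In those fits 1256 to 1667 of all tested genes were lower, beside 1888 in the main fit. RELB, lower than control in both lines, differed between them by -0.14 ± 0.10 (edgeR, adjusted p = 0.35), NFKB2 by -0.10 ± 0.07 (edgeR, adjusted p = 0.3), and BIRC3 by 0.33 ± 0.25 (edgeR, adjusted p = 0.37).

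Levels of single transcripts, as Salmon estimated them, are given without a test of their own. For NFKBIZ, the coding transcript ENST00000326172.9 averaged 7.01 ± 2.98 TPM in shAPT1, 16.2 ± 1.88 TPM in APT1wt and 16.3 ± 0.719 TPM in control (SD, n = 3 each). A shorter coding transcript of NFKBIZ, ENST00000483180.5, was listed at 0.0, 0.0 and 0.479 TPM in shAPT1, against 2.61, 6.22 and 3.14 TPM in APT1wt and 5.47, 4.97 and 4.87 TPM in control. Other NFKBIZ transcripts did not share this pattern. The coding ENST00000394054.6 averaged 2.36 ± 2.04 TPM in shAPT1, 1.76 ± 1.36 TPM in APT1wt and 0.734 ± 0.797 TPM in control, with overlapping libraries. The retained-intron ENST00000495089.1 had 5.2, 3.29 and 3.77 TPM in shAPT1, 2.66, 3.03 and 2.76 TPM in APT1wt and 2.88, 2.7 and 3.25 TPM in control, the shAPT1 libraries being the highest. Coding transcripts together made up 61.0% to 67.1% of NFKBIZ TPM in shAPT1, 76.1% to 84.6% in APT1wt and 78.2% to 81.3% in control. This share of TPM was thus lower in every shAPT1 library than in any other. On reads, short transcripts weigh less. The retained-intron ENST00000495089.1 made up 23.4%, 9.42% and 10.1% of NFKBIZ TPM in shAPT1, APT1wt and control, but 7.36%, 2.5% and 2.66% of NFKBIZ reads.

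For TNIP1, the coding transcript ENST00000315050.11 had 28.9, 20.7 and 16.5 TPM in shAPT1, 50.8, 60.5 and 50.9 TPM in APT1wt and 56.9, 78.3 and 69.4 TPM in control. Its coding neighbour ENST00000520931.5 differed less, at 39.9 ± 8.44 TPM in shAPT1, 50.4 ± 8.14 TPM in APT1wt and 59.8 ± 3.60 TPM in control. In shAPT1 the first transcript was the less abundant of the pair in every library, and in control the more abundant in every library. For NFKBIA, the coding transcript ENST00000216797.9 carried most of the level, at 54.8 ± 13.9 TPM in shAPT1, 110 ± 14.7 TPM in APT1wt and 87.9 ± 8.43 TPM in control. For TNIP3, the coding transcript ENST00000057513.7 averaged 0.896 ± 0.751 TPM in shAPT1, 1.67 ± 0.412 TPM in APT1wt and 4.80 ± 0.704 TPM in control. A retained-intron transcript of TNIP3, ENST00000515605.1, averaged 0.610 ± 0.639 TPM in shAPT1, 1.95 ± 0.930 TPM in APT1wt and 5.46 ± 0.762 TPM in control, so in control about as much TPM was assigned to it as to the coding form.

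Around these genes, 6 lists with 100 other pathway genes were read, of which 86 were tested. In shAPT1 against control 42 of the 86 passed (48.8%), 29 lower and 13 higher, beside 24.4% of all tested genes, 11.6% lower and 12.8% higher. Remaining subunit and IkappaB-family genes were lower in 4 of 6 and higher in 0, with a median of -0.46. BCL3, for a nuclear IkappaB protein, fell with a log2 fold change of -0.81 ± 0.17 (edgeR, adjusted p = 0.0036), NFKBIE, for IkappaB-epsilon, at -0.66 ± 0.10 (edgeR, adjusted p = 3.4e-04) and NFKBIB, for IkappaB-beta, at -0.36 ± 0.08 (edgeR, adjusted p = 0.0058). Other negative regulators went both ways, 3 of 12 lower and 4 higher. ZC3H12A, for the RNase Regnase-1 that degrades inflammatory mRNAs, stood at 9.92, 2.96 and 2.88 TPM in shAPT1, 21.2, 24.1 and 22.5 TPM in APT1wt and 20.4, 20.3 and 20.6 TPM in control. It fell in shAPT1 with a log2 fold change of -2.08 ± 0.27 (edgeR, adjusted p = 7.5e-05), while TAX1BP1, an adaptor of A20, was higher at 0.36 ± 0.08 (edgeR, adjusted p = 0.0037).

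Kinases and adaptors of activation had 5 of 29 lower and 3 higher in shAPT1, with a median of 0.03, beside 11.6% of all tested genes lower and 12.8% higher. IKBKE, for the IkappaB kinase relative IKK-epsilon, stood at 17.6, 12.6 and 15.6 TPM in shAPT1, 39.2, 36.6 and 35.0 TPM in APT1wt and 36.8, 42.1 and 35.9 TPM in control. It fell in shAPT1 with a log2 fold change of -1.34 ± 0.09 (edgeR, adjusted p = 2.6e-07). IRAK2, for an adaptor kinase of interleukin-1 receptors, fell at -0.76 ± 0.10 (edgeR, adjusted p = 5.9e-05) and MAP3K14, for the kinase NIK of the non-canonical branch, was higher at 0.59 ± 0.10 (edgeR, adjusted p = 8.1e-04). Receptors had 5 of 13 lower and 2 higher, against the same shares over all genes. TNFRSF1B, for TNF receptor 2, stood at 4.44, 4.17 and 7.46 TPM in shAPT1, 3.86, 3.97 and 4.68 TPM in APT1wt and 13.01, 11.8 and 12.3 TPM in control, lower than control in both lines. TLR4, for the lipopolysaccharide receptor, was higher at 1.15 ± 0.14 (edgeR, adjusted p = 3.4e-05).

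Ligands had 2 of 5 tested genes lower and 3 higher in shAPT1, beside 11.6% of all tested genes lower and 12.8% higher. IL1B, for interleukin-1 beta, had 5.53, 1.45 and 2.04 TPM in shAPT1, 11.2, 10.9 and 12.5 TPM in APT1wt and 7.06, 8.53 and 6.97 TPM in control, and the fall was -1.49 ± 0.31 (edgeR, adjusted p = 0.0028). TNFSF10, for the death ligand TRAIL, was higher at 1.09 ± 0.19 (edgeR, adjusted p = 7.8e-04). Known target genes had 10 of 21 lower and 1 higher, against the same shares over all genes, with a median of -0.80. The colony-stimulating factor genes CSF3 and CSF2 fell at -3.94 ± 0.28 (edgeR, adjusted p = 2.6e-07) and -2.15 ± 0.33 (edgeR, adjusted p = 3.0e-04), and the neutrophil chemokine genes CXCL3 and CXCL2 at -2.03 ± 0.34 (edgeR, adjusted p = 6.3e-04) and -2.01 ± 0.35 (edgeR, adjusted p = 8.1e-04). Here too the first shAPT1 library stood out, being the highest of its group for 14 of the 21 target genes and over 1.5 times both others for 9 of them, where 40.7% and 3.26% of all tested genes were.

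In APT1wt against control 29 of the 86 listed genes passed (33.7%), 14 lower and 15 higher, beside 23.4% of all tested genes, 11.6% lower and 11.8% higher. The count was 44 without the first shAPT1 library and 19 without the third APT1wt library. Over all tested genes 2434 were higher and 2391 lower in the former fit, and 1166 higher and 1132 lower in the latter. The main fit had 1796 higher and 1772 lower. Of the target genes, 7 of 21 were higher and 2 lower. MMP9, for a matrix metalloproteinase, rose at 1.80 ± 0.24 (edgeR, adjusted p = 1.1e-04) and CSF3 at 0.89 ± 0.19 (edgeR, adjusted p = 0.0035), while PLAU, for urokinase, fell at -0.69 ± 0.09 (edgeR, adjusted p = 5.4e-05). TNFRSF1B fell at -1.65 ± 0.12 (edgeR, adjusted p = 3.0e-07), TRAF1 at -0.54 ± 0.13 (edgeR, adjusted p = 0.0088) and IRAK1 at -0.58 ± 0.09 (edgeR, adjusted p = 4.1e-04). Directly against APT1wt, 34 of the 86 passed in shAPT1 (39.5%), 22 lower and 12 higher, or 19 lower and 20 higher with library totals alone. Over all tested genes 25.1% passed, 12.4% lower and 12.7% higher. Target genes were 12 of 21 lower and 1 higher, CSF3 at -4.83 ± 0.27 (edgeR, adjusted p = 2.5e-08) being the largest fall, and PTGS2, for cyclooxygenase-2, the exception at 3.49 ± 0.48 (edgeR, adjusted p = 1.3e-04). PTGS2 was near the floor, at 1.93, 0.478 and 1.03 TPM in shAPT1 on 41, 23 and 28 estimated reads. In APT1wt it had 0.0692, 0.0759 and 0.0695 TPM on 3, 1 and 4 reads.

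**Figure D4:**
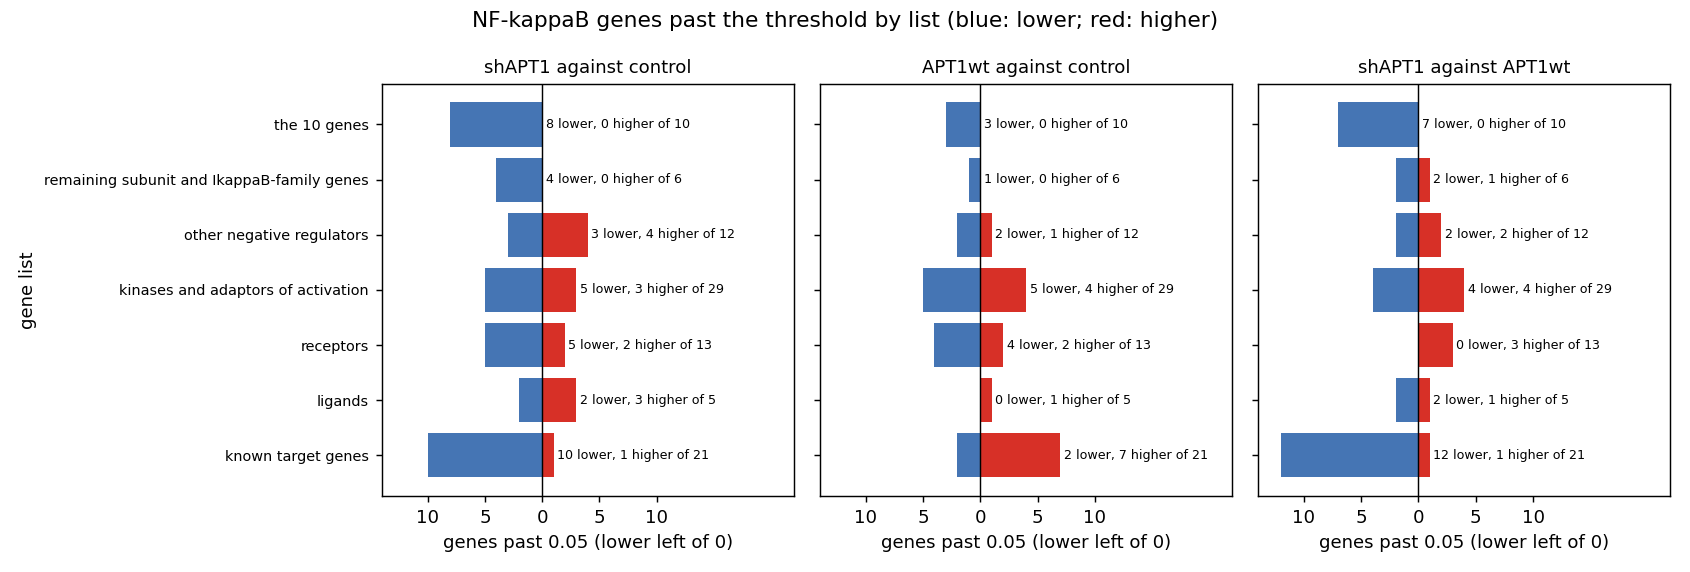
Number of genes lower and higher past an adjusted p of 0.05 among the 10 genes and in each of 6 lists of other pathway genes, for the 3 comparisons. The 10 genes have no gene higher in any comparison, and the known target genes have 10 lower and 1 higher in shAPT1 against control, beside 2 lower and 7 higher in APT1wt against control.

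Finally, the genes whose pattern over the 9 libraries was most like each were sought among 9860 protein-coding genes, by Pearson's correlation of log2(CPM + 1), CPM being reads scaled to library size, as a description over libraries that share groups and depth. NFKBIZ was most like ZC3H12A (r = 0.996), NFKB1 like FERMT1 (r = 0.994), TNIP1 like TMEM132A (r = 0.991) and NFKBIA like C15orf48 (r = 0.986). TNIP3 was most like SLC30A6 (r = 0.98), RELB like TNFRSF10B (r = 0.978) and NFKB2 like MAFF (r = 0.962). For BIRC3 the nearest were TAF13 (r = 0.956) and its chromosomal neighbour BIRC2 (r = 0.953), which stood at 180.2, 110.5 and 117.4 TPM in shAPT1, 145.6, 116.6 and 119.1 TPM in APT1wt and 130.7, 147.4 and 154.4 TPM in control, and so shared the high first shAPT1 library. TNFAIP3 had the weakest likeness of those given, with SLC25A12 (r = 0.95).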

How the data were processed

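RNA of 9 libraries, 3 each of shAPT1, APT1wt and control, was sequenced. Per the submitters' processing notes, the tools were FastQC, Salmon and DESeq2, with no versions, and the build was GRCh38.p10. The deposited Salmon files give, for 199324 transcripts, TPM and expected counts (estimated reads), and a deposited table of genes gives a scaled signal, the scaling being the authors' and not given in the sources used here. Estimated counts were summed per gene and rounded for the tests, and TPM was summed per gene for levels. The depth of 12381931 to 18667383 reads sets the counting error. After filterByExpr and TMM scaling, 1 edgeR quasi-likelihood fit over all 9 libraries gave 3 contrasts, with Benjamini-Hochberg adjustment over 15233 genes at 0.05 (edgeR 4.0.16, limma 3.58.1, R 4.3.3, Python 3.11.15, numpy 2.4.6, pandas 2.3.3, matplotlib 3.10.9). The test was tried on simulated data.

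The 10 genes and all gene lists were chosen with earlier results of these data known, and no pattern shown before counts as independent support. The 10 genes and LYPLA1 were named in every comparison. From each of 6 pathway lists, up to 4 genes per comparison were eligible, those past 0.05 with the largest changes and, in either group, a mean of 1 TPM or more. Genes of like pattern were, for each of the 10, the 3 tested protein-coding genes with a mean TPM of at least 5 and the highest correlation of log2(CPM + 1), and those of RELA are not reported here. Gene positions came from GENCODE 29 and promoters from RefSeq. Alternatives were RLE scaling, library totals alone, no filter, at least 20 reads in 3 libraries, a transcript length offset, protein-coding transcripts only, only the 2 groups compared, a replicate block, a test against a 1.2-fold change, DESeq2 1.42.0, limma-voom, the deposited table on log2(value + 1), and each library left out.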

Additional observations from a re-analysis of the deposited data

How the results depend on the processing

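Each log2 fold change of the 10 genes was recomputed under 21 alternatives, 630 values in all, of which 540 kept direction and side of the threshold, 65 lost the call, 14 gained one and 11 turned sign. In shAPT1 against control the count of lower genes ran from 6 to 9, and 6 to 9 with 1 library left out. In APT1wt against control, where 3 genes passed, 5 did with no filter on low counts and 7 with only the 2 groups compared, and 2 to 6 with 1 library left out. In shAPT1 against APT1wt, where 7 passed, 4 did with library totals alone, with the transcript length offset, with protein-coding transcripts only, with only the 2 groups compared and with the deposited table, 3 did in the test against a 1.2-fold change, and 4 to 6 with 1 library left out. Among the other pathway genes, the test against a 1.2-fold change left 21 of 42 calls in shAPT1 against control, 10 of 29 in APT1wt against control and 20 of 34 in shAPT1 against APT1wt, and only the 2 groups compared gave 44 in APT1wt against control. With 1 library left out these counts ran from 34 to 45, 19 to 44 and 26 to 42. Calls over all tested genes changed as well. The test against a 1.2-fold change left 737 higher and 498 lower in shAPT1 against control, beside 1951 and 1768 in the main fit. It left 657 and 555 in APT1wt against control, beside 1796 and 1772. In shAPT1 against APT1wt it left 688 and 578, beside 1941 and 1888. With 1 library left out, APT1wt against control ran from 1166 higher and 1132 lower to 2434 and 2391. Signs turned for RELA and BIRC3 only. RELA in APT1wt against control, at 0.00, went to -0.03 with library totals alone, 0.0 with the stricter filter and with only the 2 groups compared, -0.01 with protein-coding transcripts only, and -0.03 to 0.04 with 1 library left out. With 1 library left out, BIRC3 ran from -0.66 without shAPT1 replicate 1 to 0.12 without shAPT1 replicate 3 in shAPT1 against control, and from -0.22 without shAPT1 replicate 1 to 0.56 without shAPT1 replicate 3 in shAPT1 against APT1wt. The cause was not tested.

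Replicate numbers showed no clear pairing of the libraries. Deviations of same-numbered libraries correlated between -0.051 and 0.103, and those of other pairs between -0.105 and 0.071. Not every library correlated best with its own number. With 3 libraries per group this check is weak and cannot exclude a pairing. The sample descriptions carry a mark that follows the replicate number, and its meaning is not given. With a replicate block the counts were 7 in shAPT1 against control, 3 in APT1wt against control and 6 in shAPT1 against APT1wt. Depth limits TNIP3 most, with 13 to 171 reads per library. Transcript levels are Salmon estimates: with shares taken from reads in place of TPM, 109 of 180 moved by over 1 SD.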
